A study of Mus musculus with 9 samples.

Results

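The amino acid transporters are 36 genes picked by name from the solute carrier families that move amino acids across the plasma membrane, the lysosomal membrane and the inner mitochondrial membrane. They were found by gene symbol among the 53700 gene IDs of the count table, and all 36 had a row. Of these, 31 had enough reads to be tested. Among the 36, 6 are set apart as branched-chain carriers: Slc7a5, Slc7a8, Slc43a1, Slc43a2, Slc3a2 and Slc25a44. RNA was sequenced from C2C12 cells, a mouse myoblast line, in 9 libraries that fall into 3 groups of 3. The study's title sets these groups in work on valine, a branched-chain amino acid, and fat deposition in muscle cells.

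All cells were starved for 12 h in the reduced-serum medium OPTI-MEM, and the Control cells were taken at that point. Valine cells were then kept for 36 h with valine at 0.45 mM. Val+PA cells were kept for 24 h with valine at that same concentration, 0.45 mM, and for 12 h with the saturated fatty acid palmitic acid at 75 µM. There was no group of cells kept for the later hours without valine. A group came from a single plate of 6 wells, of which 3 were sequenced. Time in culture, plate and valine therefore cannot be told apart between groups, and a p-value here reflects only how much wells on 1 plate vary.

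Valine, leucine and isoleucine enter most cells through LAT1, the light chain encoded by Slc7a5, which trades an internal amino acid such as glutamine for an external branched-chain one. LAT1 reaches the cell surface only when joined to the heavy chain CD98, encoded by Slc3a2, which also serves the light chains of the cationic and cystine exchangers. The internal amino acids that such exchangers spend are supplied by sodium-coupled uptake, and many transporter genes carry binding sites for ATF4, the transcription factor made when amino acids run short. In muscle, branched-chain amino acids are broken down in the mitochondrion, where Slc25a44 carries them across the inner membrane.

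Library totals ran from 26750226 to 35976589 counts, and levels are given as CPM, counts scaled to a common library size with TMM factors. Control 3 and Val+PA 2 stood apart from the other wells of their groups. Between wells the chi-square statistic per degree of freedom over all genes was 108 and 118 for Control 3 against the other Control libraries, where Control 1 and Control 2 gave 11.0. It was 90.1 and 51.4 for Val+PA 2, where the other pair gave 20.1, and 3.99 to 5.41 among Valine libraries. The mitochondrially encoded gene mt-Co1 stood at 1229 CPM in Control 3 and at 3810 and 3789 CPM in the other Control libraries. It stood at 865 CPM in Val+PA 2 and at 4907 and 2935 CPM in the other Val+PA libraries. What part this has in the results was not tested. For part of the results that rest on Control 3 and Val+PA 2, values without them are given as well. The 6 myoblast markers summed to 1321 to 1566 CPM in Control, 2131 to 2253 CPM in Valine and 2013 to 3389 CPM in Val+PA. Most of this was Des, the intermediate filament of muscle cells, at 1090 to 1356 CPM in Control and 1818 to 3148 CPM elsewhere. Cdh15 stood at 168 to 182 CPM in Control and 134 to 180 CPM elsewhere. Myf5 stood at 31.2 to 39.7 CPM in Control and 42.4 to 71.5 CPM elsewhere. Myod1 and Pax7 were at most 12.3 CPM in any library. Myog had means of 0.487 CPM in Control, 6.99 CPM in Valine and 5.29 CPM in Val+PA. The 7 fibroblast markers summed to 1148 to 1727 CPM in Control, 3239 to 3339 CPM in Valine and 2950 to 4163 CPM in Val+PA. Most of that sum was Col3a1, with group means of 929, 1596.5 and 1824 CPM in this order, and Ly6a, with 386, 1399 and 1481 CPM. Pdgfra had means of 9.16, 11.0 and 10.8 CPM. Dcn had means of 9.66, 255 and 161 CPM, and Col1a1 of 13.5, 21.1 and 34.6 CPM. The rarer Lum had 0.0792, 6.60 and 2.36 CPM, and Dpt 0.365, 4.21 and 4.48 CPM. The myoblast and fibroblast sums were thus both higher in Valine and Val+PA than in Control. What part this difference has in the results was not tested. Endothelial, immune and adipocyte markers summed to at most 6.98 CPM, with Emcn, Itgam, Adipoq and Lep at 0 counts. In bulk RNA, fewer cells of a type and less RNA per cell cannot be told apart.

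The transporter with the highest mean level in all 3 groups was Slc38a2, the sodium-coupled carrier SNAT2 for glutamine and alanine. Ranks were taken on the length-scaled signal of the deposited normalized table, since counts alone favour long transcripts. On that scale Slc38a2 had a level of 194 ± 14 (SD, n = 3) in Control. Slc6a6, the taurine carrier, followed at 96.7 ± 5.8, Slc3a2 at 93.0 ± 4.9, Slc7a5 at 69.8 ± 1.3 and Slc1a4, the alanine, serine and cysteine exchanger ASCT1, at 60.9 ± 0.7 (SD, n = 3). The ranges of Slc6a6 and Slc3a2 overlapped in Control, but within each Control library Slc6a6 was the higher. It stood at 101.0, 99.0 and 90.2 where Slc3a2 stood at 97.5, 93.7 and 87.8, and this order was not tested. In Valine and Val+PA Slc3a2 held rank 2 and Slc6a6 rank 3. In Val+PA the ranges of Slc38a2, 192.6 to 239.5, and Slc3a2, 166.9 to 243.1, overlapped, and Slc3a2 was the higher of the pair in Val+PA 2. The glutamate and aspartate carrier Slc1a3 held rank 24 of 36 in Control, at 2.30 ± 0.43, and rank 7 in Valine, at 29.7 ± 0.9 (SD, n = 3).

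**Figure D1:**
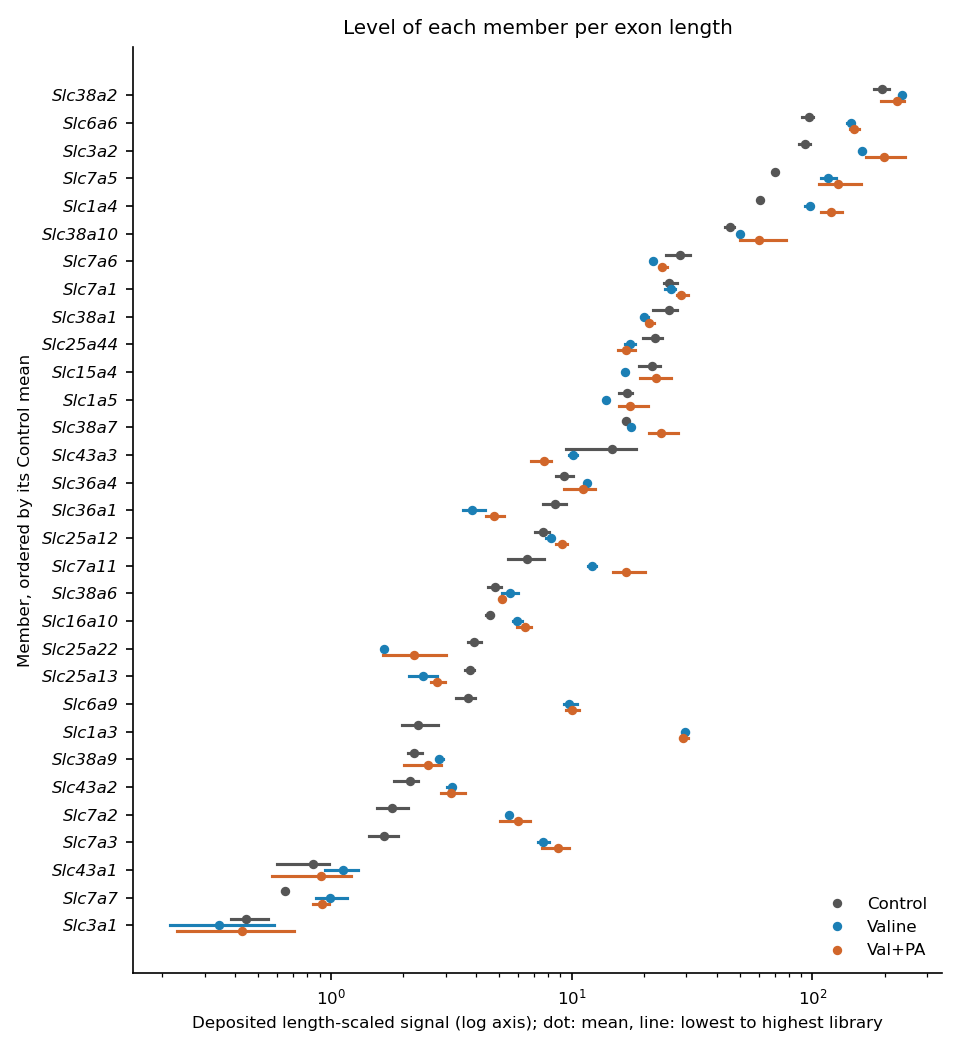
Length-scaled level of the 31 tested transporters on a log axis, as mean (dot) and lowest to highest library (line) of the 3 libraries of each group, ordered by the Control mean. Slc38a2 has the highest mean in every group, with a range that overlaps that of Slc3a2 in Val+PA, and Slc1a3 moves from 2.30 in Control to 29.7 in Valine.

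Slc7a8, which encodes LAT2, the other light chain for branched-chain and other neutral amino acids, had 0 counts in all 9 libraries. The same was true of Slc7a10, a light chain for small neutral amino acids, and of Slc38a5, a glutamine and histidine carrier of the sodium-coupled family. A count of 0 allows up to 3 counts, which is 0.0834 to 0.112 CPM per library and 0.0102 CPM over all 9 libraries together, as counting error only. Slc1a1, the neuronal and epithelial glutamate carrier, had 2 counts in all. Slc38a3, a glutamine carrier known from liver and kidney, was at or below 0.136 CPM in every library.

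Between Valine and Control, 12 of the 31 tested transporters rose and 8 fell, and 11 did not pass the test, edgeR's quasi-likelihood test at a Benjamini-Hochberg adjusted p of 0.05 over all 18415 genes tested. The glutamate carrier Slc1a3 rose 12.6-fold, the cationic amino acid carriers Slc7a3 and Slc7a2 rose 4.49-fold and 2.99-fold, and the glycine carrier Slc6a9 rose 2.56-fold. The mitochondrial glutamate carrier Slc25a22 and the proton-coupled carrier Slc36a1 fell 2.42-fold and 2.28-fold. Of all genes tested, 41.9% were called in this comparison, 20.8% higher and 21.1% lower, against 64.5% of the transporters. The 3 libraries of each group did not overlap for 25 of the 31, where 59.0% of all genes did not overlap. A call with a log2 fold change of at least 1 in size was made for 6 members, where the share of all genes was 16.7%. The median log2 fold change was 0.24 over the 31 members and -0.00 over all genes. Leaving out Control 3 and Val+PA 2 together gave 14 higher and 9 lower, where 54.1% of genes were called, and without Valine 1 or Valine 2 the number lower was 4 or 5.

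**Figure D2:**
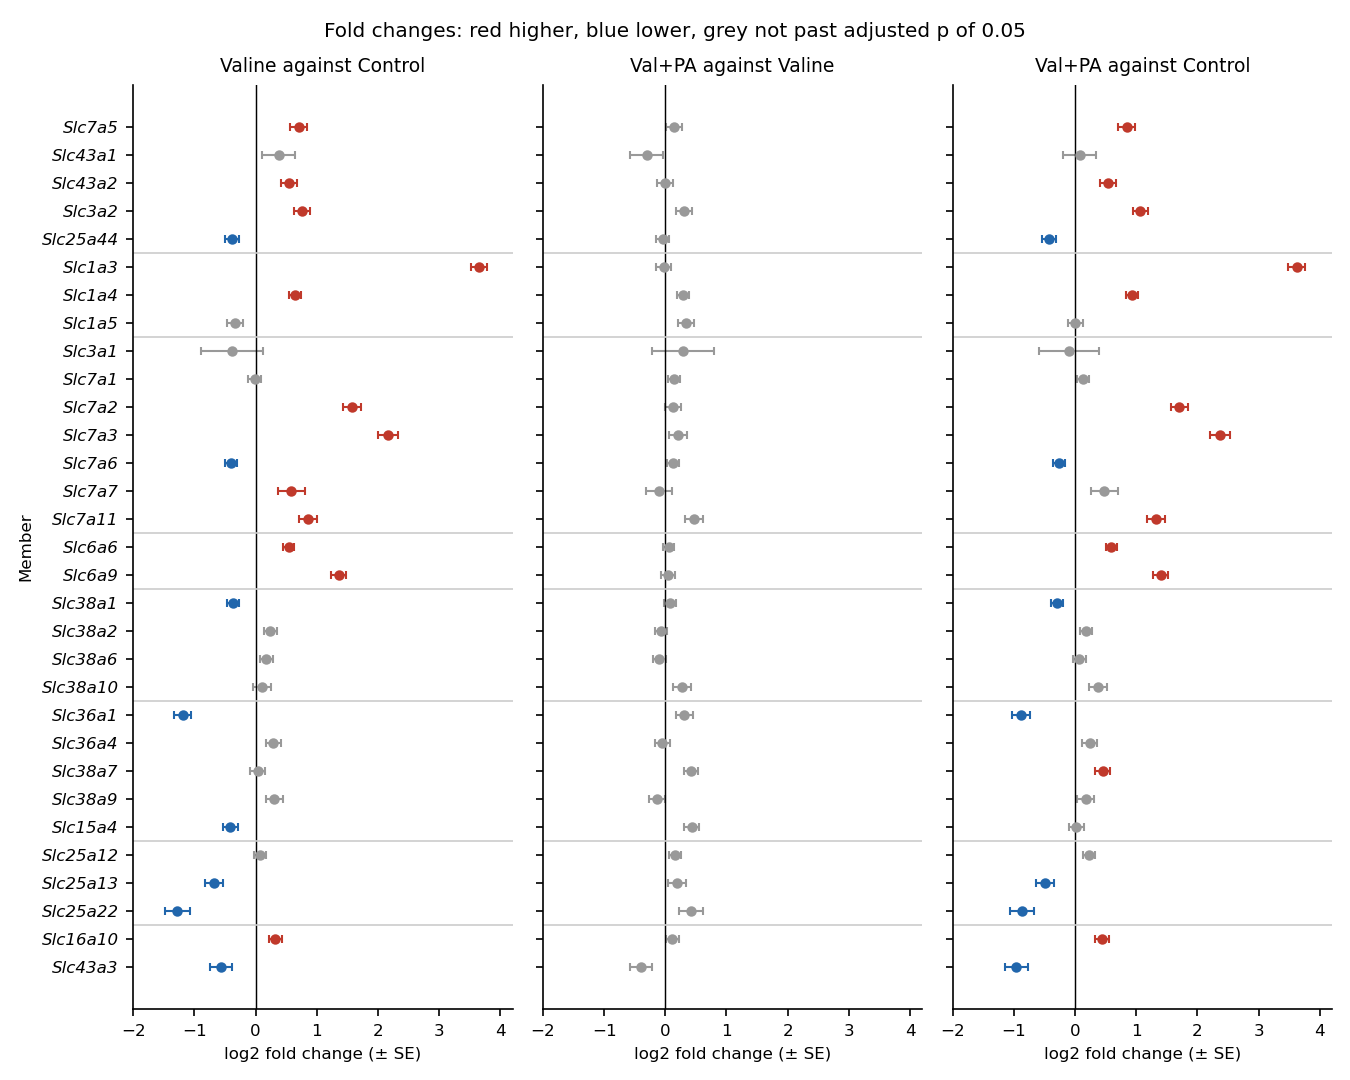
Log2 fold change with its standard error for the 31 tested transporters in the 3 comparisons, with grey lines between role groups. Points in red or blue passed the adjusted p of 0.05. In the middle panel, Val+PA against Valine, every point is grey.

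Among the branched-chain carriers 3 rose in Valine, 1 fell and 1 did not pass the test. Of all genes, 20.8% were called higher and 21.1% lower. The light chain gene Slc7a5 (ENSMUSG00000040010, GRCm38 chromosome 8, 121881150 to 121907694, minus strand) measured 126, 121 and 134 CPM in Control, 192, 221 and 207 CPM in Valine and 189.6, 283 and 211 CPM in Val+PA. All Valine and Val+PA libraries lay above all Control libraries, and the Val+PA range took in the Valine range, with Val+PA 2 the highest. Slc7a5 thus had a log2 fold change in Valine of 0.70 (SE 0.14, adjusted p = 0.00151), a 1.63-fold rise, and its adjusted p was at most 0.0097 under each of the 21 alternatives.

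Its partner Slc3a2 (ENSMUSG00000010095, chromosome 19, 8706882 to 8723369, minus strand) measured 168, 157 and 157 CPM in Control, 262, 274 and 280.05 CPM in Valine and 319, 412 and 281 CPM in Val+PA. Here the 3 groups followed each other without overlap, though Val+PA 3 lay only just above the highest Valine library. For Slc3a2 the log2 fold change was 0.76 (SE 0.13, adjusted p = 0.000562) in Valine, 1.69-fold, and 1.07 (SE 0.13, adjusted p = 4.85e-05) between Val+PA and Control. Between Val+PA and Valine its change of 0.31 (SE 0.13) did not pass the test (adjusted p = 0.358), and it was 0.14 without Val+PA 2 (adjusted p = 0.713).

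Since both chains are needed for 1 transporter, their ratio was taken within each library on the per-length scale. The log2 ratio of Slc7a5 to Slc3a2 averaged -0.41 ± 0.10 over Control libraries, -0.47 ± 0.07 over Valine libraries and -0.64 ± 0.17 over Val+PA libraries (SD, n = 3). The ratio thus differed by -0.06 between Valine and Control, by -0.17 between Val+PA and Valine and by -0.23 between Val+PA and Control. Two-sided exact permutation tests gave p = 0.5, 0.3 and 0.2, or 0.5, 0.45 and 0.45 after Benjamini-Hochberg adjustment over 3 tests. With 3 libraries against 3 the smallest p possible is 0.1, so this design could not have called a difference.

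Slc43a2, which encodes LAT4, a sodium-independent carrier for branched-chain amino acids, phenylalanine and methionine, was rarer. It measured 11.1, 11.0 and 9.34 CPM in Control, 15.5, 14.5 and 15.7 CPM in Valine and 13.9, 17.4 and 14.4 CPM in Val+PA. The Control libraries lay below the rest, and the other groups overlapped. Its log2 fold change was 0.54 in Valine (SE 0.13, adjusted p = 0.00593) and 0.54 in Val+PA (SE 0.13, adjusted p = 0.00638), each against Control.

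Slc43a1, the related carrier LAT3, stood at 2.76, 2.55 and 1.73 CPM in Control, 3.53, 3.08 and 2.61 CPM in Valine and 1.57, 3.33 and 2.60 CPM in Val+PA. All 3 groups overlapped. For Slc43a1 the log2 fold change in Valine was 0.38 (SE 0.27, adjusted p = 0.284), and 0.22 without Control 3 (adjusted p = 0.574). Against Control the value of Val+PA was 0.07 (SE 0.28, adjusted p = 0.855) or -0.36 without Control 3 and Val+PA 2.

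Slc25a44, the mitochondrial branched-chain carrier, went the other way. It measured 41.5, 39.4 and 35.7 CPM in Control, 29.7, 28.3 and 31.5 CPM in Valine and 28.9, 31.4 and 26.6 CPM in Val+PA. Every Control library lay above every other library, while Valine and Val+PA overlapped. Slc25a44 had a log2 fold change of -0.38 in Valine (SE 0.11, adjusted p = 0.0152) and -0.43 in Val+PA (SE 0.11, adjusted p = 0.00894). The call in Valine was lost without Control 1, Valine 1 or Valine 2, at an adjusted p of 0.0625, 0.0618 and 0.0759, and with library size alone as the scaling, at 0.0512.

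**Figure D3:**
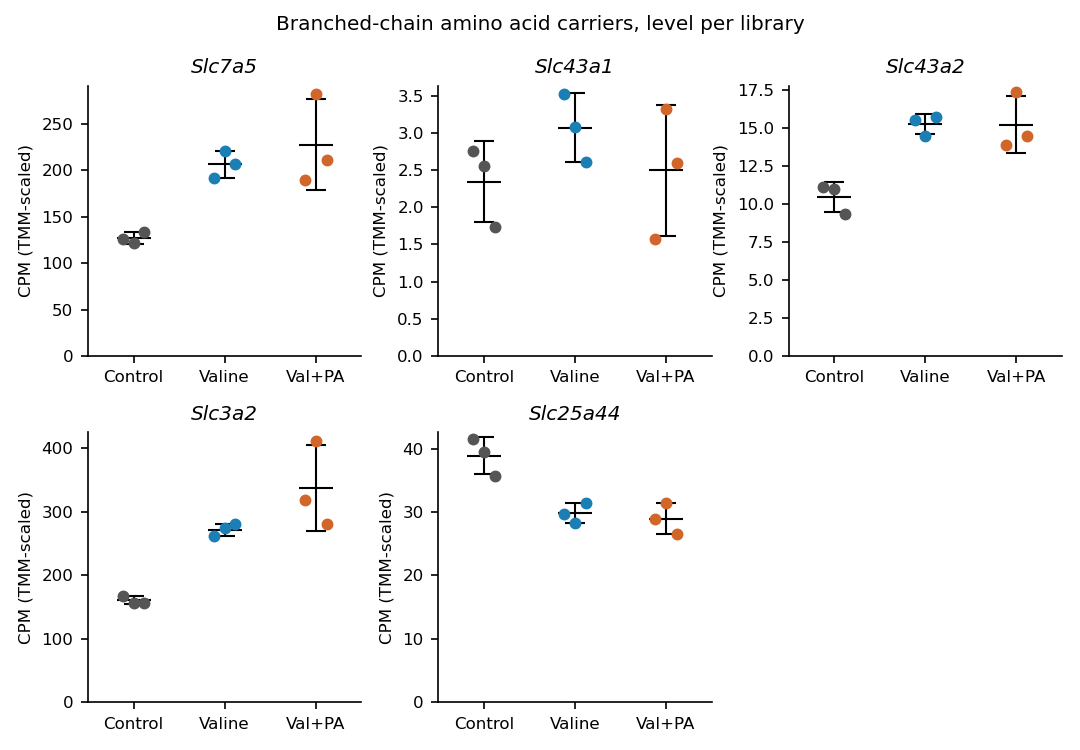
Level of the 5 measured branched-chain carriers in each library (points), with the mean and SD of the 3 libraries of a group (bars), in CPM on axes that start at 0. Slc7a5, Slc43a2 and Slc3a2 lie higher and Slc25a44 lower in Valine and Val+PA than in Control, and Slc43a1 overlaps.

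Set against the other transporters, the 5 measured branched-chain carriers had a median log2 fold change of 0.54 in Valine, where the other 26 had 0.14. Of those 26, 9 rose and 7 fell, where 20.8% of all genes were called higher and 21.1% lower. The higher median was not particular to the branched-chain carriers. By role group the median in Valine was 0.64 for SLC1, 0.59 for the cationic and heavy-chain-linked group and 0.95 for SLC6. It was 0.14 for SLC38, 0.04 for the lysosomal and proton-coupled members, -0.68 for the mitochondrial carriers and -0.12 for Slc16a10 and Slc43a3. As log2 levels relative to Control, the median of the branched-chain carriers minus that of the others was 0.08, 0.04 and -0.09 in the Control libraries, 0.34, 0.37 and 0.42 in the Valine libraries and 0.18, 0.45 and 0.21 in the Val+PA libraries. All 6 libraries with valine lay above the 3 Control libraries in this difference, and Valine and Val+PA overlapped. Against Control the difference of the medians was 0.40 in Valine and 0.33 in Val+PA, the latter 0.15 without Control 3 and Val+PA 2 and 0.20 without Val+PA 2 alone. These medians rest on 5 genes that do not all move one way, and they are given as a description with no test.

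**Figure D4:**
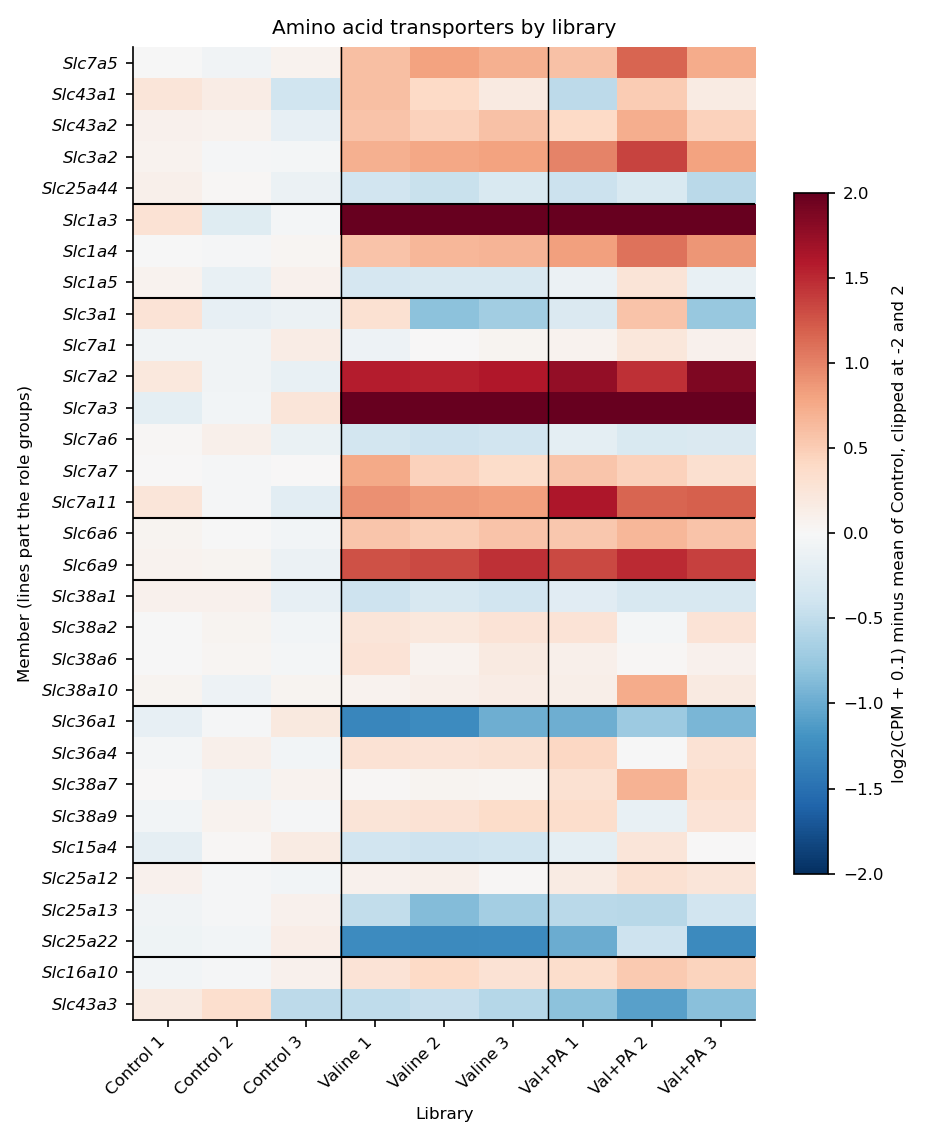
Level of the 31 tested transporters in each of the 9 libraries, as log2(CPM + 0.1) minus the mean of Control, with colours clipped at -2 and 2 and black lines between role groups. Slc1a3 and Slc7a3 are the darkest reds in all 6 libraries with valine, and Slc36a1 and Slc25a22 the darkest blues in Valine.

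Among the 31 tested members the largest change was in Slc1a3 (ENSMUSG00000005360, chromosome 15, 8634124 to 8710764, minus strand), which encodes the sodium-coupled glutamate and aspartate carrier GLAST, best known from astrocytes. It measured 11.6, 8.02 and 9.22 CPM in Control, 124, 117 and 123 CPM in Valine and 115.5, 117 and 123 CPM in Val+PA. The libraries with valine lay together, far above Control. In Valine the log2 fold change of Slc1a3 was 3.65 (SE 0.14, adjusted p = 1.82e-08), and in Val+PA it was 3.63 (SE 0.14, adjusted p = 2.27e-08). Slc1a4 rose as well, from 117 ± 3 CPM in Control to 182 ± 8 in Valine and 224 ± 23 in Val+PA (SD, n = 3). Its log2 fold changes against Control were 0.64 (adjusted p = 0.000286) and 0.93 (adjusted p = 1.75e-05). The glutamine exchanger Slc1a5, ASCT2, did not pass the test, at 34.9 ± 3.2 CPM in Control and 27.7 ± 0.2 in Valine (SD, n = 3; adjusted p = 0.0579). Without Control 2 or Val+PA 2 it passed at an adjusted p of 0.0470 and 0.00994, as a fall of 0.41 and 0.33 on the log2 scale.

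Of the 7 tested members of the cationic and heavy-chain-linked group 4 rose and 1 fell in Valine. That is 71.4% called, where the share of all genes was 41.9%. Slc7a3, the cationic carrier CAT3 for arginine and lysine, measured 2.66, 2.95 and 3.62 CPM in Control, 13.6, 13.0 and 14.6 CPM in Valine and 13.7, 17.7 and 16.2 CPM in Val+PA. Slc7a2, the cationic carrier CAT2, measured 9.33, 7.63 and 7.21 CPM in Control, 24.0, 23.8 and 24.5 CPM in Valine and 27.4, 22.1 and 29.4 CPM in Val+PA. For both genes Control lay below all other libraries, with no overlap. The log2 fold change in Valine was 2.17 (SE 0.16, adjusted p = 1.11e-06) for Slc7a3 and 1.58 (SE 0.14, adjusted p = 5.11e-06) for Slc7a2. In contrast to these, the widely expressed cationic carrier Slc7a1, CAT1, stood at 144 ± 13 CPM in Control and 143 ± 8 in Valine (SD, n = 3), with a log2 fold change of -0.02 (SE 0.10, adjusted p = 0.917).

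Slc7a11, the light chain xCT that exports glutamate and takes up cystine, measured 52.1, 43.4 and 38.3 CPM in Control, 83.5, 80.2 and 78.4 CPM in Valine and 136, 99.0 and 101 CPM in Val+PA. The 3 groups did not overlap, and Val+PA 1 was the highest library. Its log2 fold change was 0.85 (SE 0.14, adjusted p = 0.000547) in Valine and 1.33 (SE 0.14, adjusted p = 2.24e-05) in Val+PA, each against Control. Slc7a6, the exchanger y+LAT2, fell by 0.39 on the log2 scale in Valine (adjusted p = 0.00675). Slc7a7, the related y+LAT1, rose from 1.05 ± 0.01 to 1.57 ± 0.25 CPM (SD, n = 3; adjusted p = 0.0473), a call lost under 16 of 21 alternatives, leaving out any 1 library but Val+PA 2 among them. Exons of Slc7a7 overlap those of Oxa1l on the other strand over 7.0% of their length. The strand setting of the counting is not given in the sources used here, so with 406 counts in all for Slc7a7 and 13098 for Oxa1l its level is uncertain. The same holds for Slc3a1, the heavy chain rBAT, with 130 counts and 26.5% of its exons shared with Prepl, which had 37458. Slc3a1 stood at 0.493 ± 0.101 CPM in Control and 0.374 ± 0.218 in Valine (SD, n = 3; adjusted p = 0.57).

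Promoters are shown for Slc7a11 and for Slc1a3, the member with the largest change in Valine. Slc7a11 was among the 2 members, of 27 searched, that held the motif given below. Promoters were searched because amino acid response elements of the kind ATF4 binds are known from transporter genes. The sequences are the 250 bases before the gene start from RefSeq, build GRCm38.p6, on the gene's own strand (minus for both), chr3:50443614-50443863 for Slc7a11 and chr15:8710808-8711057 for Slc1a3. Capitals mark matches to TGATGNAA, searched on both strands.
Slc7a11: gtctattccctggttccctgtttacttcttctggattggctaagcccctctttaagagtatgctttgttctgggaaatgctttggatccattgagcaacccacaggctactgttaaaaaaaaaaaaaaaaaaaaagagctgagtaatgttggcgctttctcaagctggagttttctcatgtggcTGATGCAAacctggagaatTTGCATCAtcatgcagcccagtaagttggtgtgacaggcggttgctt
Slc1a3: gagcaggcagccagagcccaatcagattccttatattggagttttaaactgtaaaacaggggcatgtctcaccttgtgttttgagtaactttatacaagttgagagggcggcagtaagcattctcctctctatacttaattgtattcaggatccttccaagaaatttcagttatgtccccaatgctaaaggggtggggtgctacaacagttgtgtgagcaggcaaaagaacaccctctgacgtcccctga

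The Slc7a11 window holds 2 matches, from -66 to -59 on the gene's strand and from -47 to -40 on the other, which do not overlap each other. The Slc1a3 window holds none. Promoters were found for 27 of the 36 members, and the motif was in 2 of them, Slc7a11 and Slc7a7, where 3.9% of 27018 genes had it. The antioxidant response element TGACNNNGC, searched in the same way, was in 5 of the 27, namely Slc43a1, Slc6a9, Slc7a1, Slc7a6 and Slc38a2, where 11.5% of genes had it. A match is a description of the letters and not evidence of a bound site.

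Both sodium- and chloride-coupled members rose in Valine, where 20.8% of all genes were called higher. Slc6a9, the glycine carrier GlyT1, measured 9.81, 9.66 and 8.58 CPM in Control, 22.7, 23.4 and 25.9 CPM in Valine and 23.4, 26.5 and 24.1 CPM in Val+PA. Control lay below all other libraries. Slc6a9 had a log2 fold change of 1.36 in Valine (SE 0.12, adjusted p = 3.88e-06). Its exons share 27.8% of their length with Ccdc24 on the other strand, which had 165 counts against 5834 for Slc6a9, and 0.89% with B4galt2, which had 18441. Slc6a6, which brings taurine into muscle, rose from 400.03 ± 15.7 CPM to 581 ± 17 (SD, n = 3; log2 fold change 0.54, adjusted p = 0.000417).

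The sodium-coupled neutral carriers, the SLC38 members outside the lysosomal group, had log2 fold changes from -0.37 to 0.24 in Valine. For all 4 tested the Valine and Control libraries did not overlap, where 59.0% of all genes did not overlap. Of the 4 tested, 1 passed edgeR's test in Valine, where 41.9% of all genes did. That member, the glutamine carrier Slc38a1 or SNAT1, fell from 213 ± 20 CPM to 164 ± 6 (SD, n = 3; log2 fold change -0.37, adjusted p = 0.00902), a call lost without Valine 1 at an adjusted p of 0.0527. Slc38a2 measured 835, 874 and 806 CPM in Control, 996, 964 and 1015 CPM in Valine and 1018, 817 and 1008 CPM in Val+PA. Valine lay above Control, but Val+PA 2 fell inside the Control range. The log2 fold change of Slc38a2 in Valine was 0.24 (SE 0.10, adjusted p = 0.076), and 0.22 (adjusted p = 0.00230) without Control 3 and Val+PA 2. Slc38a6 and Slc38a10, less studied members of the family, had log2 fold changes of 0.17 and 0.10 that did not pass the test.

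Among the lysosomal and proton-coupled members 2 of 5 passed edgeR's test in Valine, and both fell. These 40% were near the 41.9% of all genes called. Slc36a1, the proton-coupled carrier PAT1 for small neutral amino acids, which sits largely on lysosomes, measured 20.9, 23.2 and 26.9 CPM in Control, 9.45, 9.77 and 11.8 CPM in Valine and 11.9, 14.2 and 12.4 CPM in Val+PA. The 3 groups did not overlap, with Valine lowest. For Slc36a1 the log2 fold change was -1.19 (SE 0.14, adjusted p = 4.25e-05) in Valine and -0.88 (SE 0.14, adjusted p = 0.000388) in Val+PA, each against Control.

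Slc15a4, the lysosomal histidine and peptide carrier, measured 49.6, 56.6 and 62.6 CPM in Control, 42.7, 41.9 and 42.4 CPM in Valine and 49.1, 66.1 and 56.2 CPM in Val+PA. Valine lay below both other groups, which overlapped. Slc15a4 had a log2 fold change in Valine of -0.41 (SE 0.13, adjusted p = 0.0211), and the call was lost without Control 2, Control 3 or any 1 Valine library, at an adjusted p of 0.0530 to 0.0720. Against Control, Val+PA differed by 0.02 (SE 0.13, adjusted p = 0.912).

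The lysosomal glutamine carrier Slc38a7 measured 34.3, 32.2 and 35.6 CPM in Control, 34.6, 35.2 and 34.9 CPM in Valine and 41.9, 55.2 and 42.9 CPM in Val+PA. Control and Valine overlapped, and all Val+PA libraries lay above them. Slc38a9, the lysosomal arginine sensor, and Slc36a4, a proton-independent relative of Slc36a1, had log2 fold changes of 0.31 and 0.29 in Valine at adjusted p = 0.0878 and 0.071. Without Val+PA 2 the adjusted p was 0.0122 for Slc38a9 and 0.0114 for Slc36a4.

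Of the 3 mitochondrial carriers in this group, apart from Slc25a44, 2 fell in Valine, where 21.1% of all genes were called lower. Slc25a22, a glutamate carrier of the inner membrane, measured 10.9, 11.1 and 12.7 CPM in Control, 4.78, 4.74 and 4.78 CPM in Valine and 5.78, 8.68 and 4.70 CPM in Val+PA. Control lay above all other libraries, and Val+PA 2 was the highest of the rest. For Slc25a22 the log2 fold change was -1.28 in Valine (SE 0.20, adjusted p = 0.000312) and -0.86 in Val+PA (SE 0.20, adjusted p = 0.00426), each against Control. Without 1 library the value in Val+PA ran from -1.14 to -0.68. Slc25a13, the aspartate and glutamate exchanger citrin, fell from 7.06 ± 0.43 to 4.39 ± 0.57 CPM in Valine (SD, n = 3; log2 fold change -0.68, adjusted p = 0.00304). Its counterpart Slc25a12, aralar, stood at 27.3 ± 1.5 and 28.7 ± 0.9 CPM (SD, n = 3; adjusted p = 0.61).

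The aromatic amino acid carrier Slc16a10, TAT1, rose by 0.32 on the log2 scale in Valine (adjusted p = 0.0309), a call lost under 7 of 21 alternatives, those without Control 1, Control 2 or any 1 Valine library among them. Slc43a3, a relative of the LAT3 and LAT4 genes known as a purine nucleobase carrier, measured 35.3, 39.4 and 21.5 CPM in Control, 21.8, 22.5 and 20.8 CPM in Valine and 17.5, 14.6 and 17.4 CPM in Val+PA. Control 3 lay inside the Valine range, and Val+PA was lowest. In Valine the log2 fold change of Slc43a3 was -0.57 (SE 0.19, adjusted p = 0.0287), and -0.78 (adjusted p = 6.36e-07) without Control 3 and Val+PA 2. This call was lost under 10 of 21 alternatives, those without Control 1, Control 2 or any 1 Valine library among them.

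**Figure D5:**
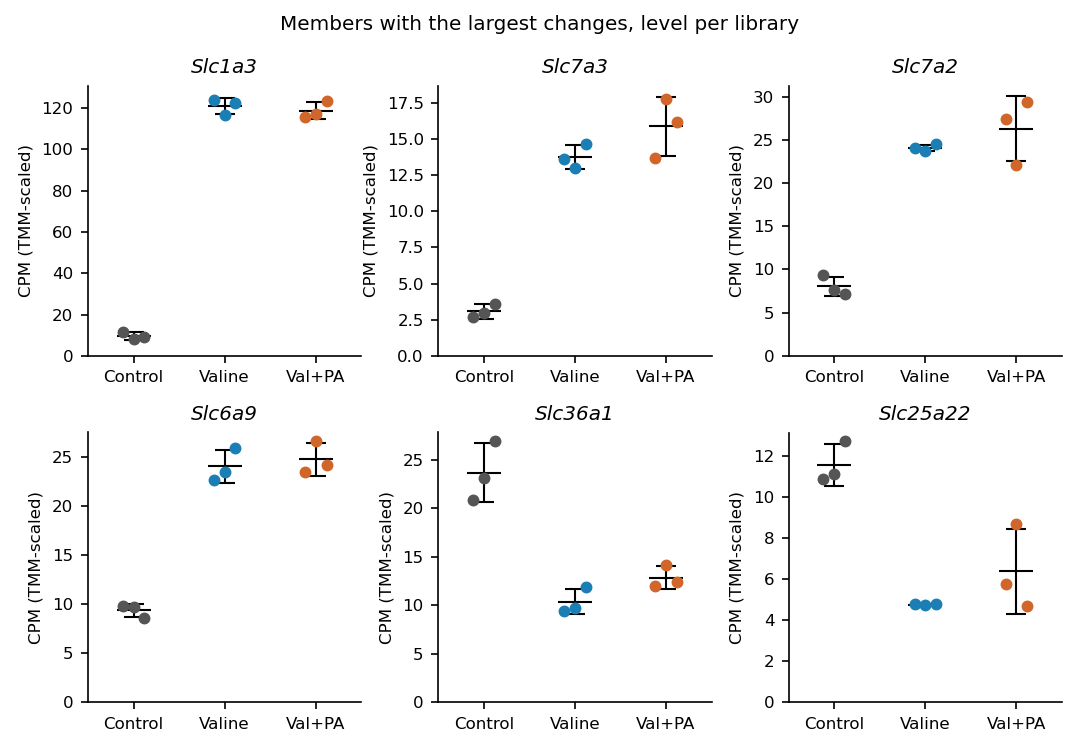
Level in each library (points) of the 6 members called with a log2 fold change of at least 1 in size between Valine and Control, with the mean and SD of each group (bars), in CPM on axes that start at 0. Slc1a3, Slc7a3, Slc7a2 and Slc6a9 lie higher and Slc36a1 and Slc25a22 lower in all 6 libraries with valine than in Control.

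Val+PA against Valine sets wells given valine for 24 h, with palmitic acid for 12 h, beside wells given valine for 36 h, on separate plates. The labels do not say whether valine was still present during the palmitic acid hours, so palmitic acid, time in valine and plate cannot be told apart. None of the 31 transporters passed edgeR's test, nor did any of the 18415 genes (0.0%), and DESeq2, which called 1.24% of genes, called none of the members either. At an unadjusted p below 0.05, 7 transporters differed, all with higher values in Val+PA, where 13.2% of all genes differed and 7.72% had higher values. These 7 were Slc3a2, Slc1a4, Slc1a5, Slc7a11, Slc36a1, Slc38a7 and Slc15a4. For 11 of the 31 members the libraries of both groups did not overlap, against 24.6% of all genes. The median log2 fold change was 0.13 over the members, -0.00 over the branched-chain carriers and 0.14 over the others, where that of all genes was 0.00.

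The members nearest to a call were Slc38a7, Slc15a4 and Slc7a11. The log2 fold change between Val+PA and Valine was 0.42 for Slc38a7 (SE 0.12, adjusted p = 0.268). It was 0.43 for Slc15a4 (SE 0.13, adjusted p = 0.278) and 0.47 for Slc7a11 (SE 0.14, adjusted p = 0.293). Without Control 3 and Val+PA 2, where 3.21% of genes were called, these 3 passed the test and no other member did. The values were then 0.28 for Slc38a7 (adjusted p = 0.0410), 0.31 for Slc15a4 (adjusted p = 0.0418) and 0.55 for Slc7a11 (adjusted p = 0.00748). Slc7a11 also passed without the filter on low counts (adjusted p = 0.0233), where 2.3% of genes did. Slc1a3, with its large difference from Control, differed by -0.03 (SE 0.12, adjusted p = 0.927) between these groups.

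Val+PA against Control shares its Control libraries with the first comparison. In it 12 of the 31 transporters rose and 7 fell, 61.3% of those tested, where 39.2% of all genes were called, 20.4% higher and 18.8% lower. For 22 members the libraries of both groups did not overlap, where the share of all genes was 45.5%, and 6 members had a call with a log2 fold change of at least 1 in size, against 15.7% of genes. Side by side, the log2 fold changes against Control in Valine and in Val+PA were 0.70 and 0.84 for Slc7a5, 2.17 and 2.37 for Slc7a3, 1.58 and 1.71 for Slc7a2, and 1.36 and 1.40 for Slc6a9. Without 1 library the value of Slc7a5 in Val+PA ran from 0.66 to 0.96. Between Val+PA and Valine Slc7a5 differed by 0.14 (SE 0.14, adjusted p = 0.625), and by -0.04 without Val+PA 2 (adjusted p = 0.924). Slc38a7 rose in Val+PA by 0.46 on the log2 scale (SE 0.12, adjusted p = 0.00985), where its value in Valine was 0.04 (SE 0.12, adjusted p = 0.83). Slc7a7, with 0.48 (adjusted p = 0.104), and Slc15a4 were not called in Val+PA.

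Of the 7 members that fell in Val+PA, Slc43a3 had a log2 fold change of -0.96 (SE 0.19, adjusted p = 0.00157), the lowest. Slc7a6 and Slc38a1 were called at an adjusted p of 0.0486 and 0.0322, and these calls were lost under 16 and 13 of 21 alternatives. Leaving out any 1 library but Control 3 ended the call of Slc7a6, and leaving out Control 1, Control 2, Val+PA 3 or any 1 Valine library ended that of Slc38a1. Slc25a13, at -0.50 (SE 0.15, adjusted p = 0.0187), was lost without Val+PA 1 (adjusted p = 0.0508). Without Control 3 and Val+PA 2, 16 transporters rose and 7 fell, where 49.8% of genes were called. Slc38a2, Slc36a4, Slc38a9 and Slc38a10 were called in addition, with log2 fold changes of 0.25, 0.33, 0.30 and 0.18.

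Other genes of amino acid handling were counted in the same fit of all 9 libraries. Of 17 tested among 35 further amino acid transporters, 3 rose and 7 fell in Valine, and 5 rose and 4 fell in Val+PA, each against Control. That is 58.8% and 52.9% called, beside 41.9% and 39.2% of all genes. Slc1a7, a glutamate carrier of the Slc1a3 family known from retina, rose from 0.386 to 8.54 CPM in Valine (log2 fold change 4.40, SE 0.28, adjusted p = 4.33e-07). Slc25a38, the mitochondrial glycine carrier, fell from 17.2 to 4.68 CPM (log2 fold change -1.87, SE 0.17, adjusted p = 4.62e-06).

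The next list held 26 genes of the ATF4 response to amino acid shortage, with Atf4 itself and the kinase gene Eif2ak4 among them. Of these, 16 passed edgeR's test in Valine and 18 in Val+PA. All of these calls were rises over Control, where 20.8% and 20.4% of all genes were called higher. Fgf21, a hormone gene of this response, had 0.160, 0.0911 and 0 CPM in Control and 2.72, 3.26 and 3.05 CPM in Valine, so that all Valine libraries lay above Control. Vldlr, a lipoprotein receptor gene, rose by 3.00 on the log2 scale (SE 0.14, adjusted p = 6.97e-08), and Asns, which makes asparagine, by 1.10 (SE 0.10, adjusted p = 4.06e-06). Atf4 itself, whose product is controlled mainly by translation, had a log2 fold change of 0.16 in Valine (SE 0.10, adjusted p = 0.216) and rose by 0.39 in Val+PA (SE 0.10, adjusted p = 0.00889).

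A further list held genes of amino acid signalling to mTORC1, the growth kinase complex at the lysosome, with Mtor and Rptor of the complex itself. Of 27 tested, 8 rose and 6 fell in Valine, 51.9% called where the share of all genes was 41.9%. Sesn3, a sestrin, the family of which Sesn2 senses leucine, rose by 1.61 on the log2 scale (SE 0.11, adjusted p = 7.44e-07), and Flcn, folliculin, fell by 1.53 (SE 0.16, adjusted p = 2.01e-05). Of 7 tested genes of the first steps of branched-chain breakdown, 2 rose and 1 fell, and these 42.9% were near the 41.9% of all genes. Bckdha, a subunit of the branched-chain ketoacid dehydrogenase, rose by 1.34 on the log2 scale (SE 0.14, adjusted p = 1.53e-05). Bcat1, the cytosolic branched-chain aminotransferase, fell from 258 ± 2 to 197 ± 10 CPM (SD, n = 3; log2 fold change -0.39, adjusted p = 0.00317). None of the genes in these 4 lists passed edgeR's test between Val+PA and Valine; at an unadjusted p below 0.05 it gave 3, 7, 3 and 0 genes of 17, 26, 27 and 7, in the order described, where 13.2% of all genes had such a p. DESeq2, with the same adjusted threshold, called 2 genes of the ATF4 list higher in Val+PA than in Valine, and 0 of the other lists.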

How the data were processed

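RNA was measured in 9 libraries, 3 per group, grouped by their labels. Per the submitters' processing notes HISAT2, featureCounts and DESeq2 were used with build GRCm38. Their settings were not stated there. The authors deposited whole-number read counts per gene, not normalized. They also deposited a normalized signal table, which, tested on 9199 genes, equals the count divided by exon length and by 1 factor per library (98.4% within 1%).

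Symbols and coordinates came from GENCODE M21, which named 97.1% of IDs. Counts were filtered with filterByExpr, scaled by TMM and fitted with edgeR 4.0.16 (quasi-likelihood, R 4.3.3, 1 fit of 3 group means), two-sided, with Benjamini-Hochberg adjustment over 18415 genes. The alternatives were DESeq2 1.42.0, limma 3.58.1 on the signal, other scalings, filters, fits, a threshold of 0.01 and libraries left out. The fit was tested on simulated counts. The members, lists and tests were chosen with earlier results of these data known. Values in every library are given for the branched-chain carriers, for members called between Valine and Control with a log2 fold change of at least 1 in size, and for the 3 smallest p-values between Val+PA and Valine. From further lists the genes with the largest rises and falls are named. Slc38a2, Slc43a3, Asns, Atf4, mt-Co1, Des, Myog, Col3a1, Ly6a, Pdgfra, Dcn, Col1a1, Lum and Dpt fall outside these rules and were picked with their values known. A planned ratio of Slc7a5 to Slc7a8 could not be computed, since Slc7a8 had 0 counts, which left 3 ratio tests. Intervals and floors cover counting error only.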

Additional observations from a re-analysis of the deposited data

How the results depend on the processing

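Between Valine and Control 14 of the 20 called members were called under every alternative, and between Val+PA and Control 16 of 19. No called member changed direction, and the median log2 fold change of all genes was at most 0.0675 in size under every setting. Without 1 library, 10 to 15 members were higher and 4 to 9 lower in Valine, and 12 to 15 higher and 5 to 7 lower in Val+PA, each against Control. A threshold of 0.01 gave 5 lower in Valine. For Val+PA against Control 4 were lower at 0.01, with no filter, and with limma on log2(signal + 1) and no filter. For Val+PA against Valine no filter gave 1 higher, leaving out Control 3 and Val+PA 2 gave 3, and leaving out 1 library gave 0. The difference of medians, branched-chain minus other, ran from 0.32 to 0.45 in Valine and from 0.20 to 0.45 in Val+PA without 1 library, and from -0.20 to -0.10 between Val+PA and Valine. With limma on log2(signal + 1) it was 0.24 in Valine and 0.19 in Val+PA, or 0.26 and 0.20 with no filter, and without Control 3 and Val+PA 2 it was 0.15 in Val+PA. A pseudocount of 1 shrinks changes of low genes by construction, and otherwise the cause was not tested. The log2 ratio of Slc7a5 to Slc3a2 differed by -0.10 to -0.00, -0.25 to -0.08 and -0.31 to -0.14 without 1 library, in the order Valine against Control, Val+PA against Valine and Val+PA against Control.

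With the replicate number as a block, 11 members were higher and 8 lower in Valine, 12 higher and 6 lower in Val+PA against Control, and 0 between Val+PA and Valine. The calls lost were Slc7a7 and Slc7a6. Same-numbered libraries correlated at 0.092, 0.037 and 0.156 (Valine, Control) and 0.095, 0.032 and 0.033 (Val+PA, Valine). Between Val+PA and Control they correlated at 0.238, -0.409 and 0.039. Libraries with different numbers reached 0.44 (Val+PA 1, Control 2) and -0.46 (Val+PA 1, Control 3). Correlations over 3 libraries per group cannot settle whether same-numbered samples share more than a number.

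Some members that were not called changed sign. Slc7a1 in Valine had a log2 fold change of 0.0614 with library size alone, 0.000832 with no filter, 0.0227 with limma on log2(signal + 1), with or without the filter, 0.0235 with log2(signal + 0.1) and 0.0669 without Control 3 and Val+PA 2. Leaving out those 2 libraries between Val+PA and Valine gave -0.0448 for Slc7a5, -0.253 for Slc3a1, -0.0153 for Slc6a9, 0.0277 for Slc38a2, 0.0610 for Slc36a4 and 0.000786 for Slc38a9. Between Val+PA and Control it gave -0.356 for Slc43a1, -0.0878 for Slc1a5 (-0.00304 with RLE factors) and -0.0111 for Slc15a4. Without 1 library, values in Valine ran from -0.0575 to 0.0653 for Slc7a1 and -0.00405 to 0.0726 for Slc38a7. Between Val+PA and Valine they ran from -0.0420 to 0.259 for Slc7a5, -0.107 to 0.0595 for Slc43a2, -0.105 to 0.0160 for Slc25a44, -0.250 to 0.883 for Slc3a1, -0.191 to 0.0256 for Slc7a7, -0.0126 to 0.0991 for Slc6a9, -0.121 to 0.0304 for Slc38a2, -0.144 to 0.0635 for Slc36a4 and -0.236 to 0.00319 for Slc38a9. Between Val+PA and Control they ran from -0.188 to 0.328 for Slc43a1, -0.134 to 0.0868 for Slc1a5, -0.636 to 0.204 for Slc3a1 and -0.0938 to 0.122 for Slc15a4.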
